A study of Mus musculus with 26 samples.

Results

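The genes described here bring glucose into the heart, break it down to pyruvate and lactate, and store or release it as glycogen. They were chosen by name: 31 genes, found in 32 of the 56941 rows of the count matrix, because Aldoa is listed under 2 identifiers. The second Aldoa row held 68 reads over all mice and was not tested. The other 31 rows passed the filter on low counts and are among the 15357 genes tested.

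RNA was sequenced from the left ventricle of 26 mice aged 12 to 16 weeks, each infused with saline for 2 weeks from an implanted minipump. The knockout mice (cKO, 7 males and 7 females) had the genotype aMHC-CreTg/0-Ppp2r2aL/L. They carry floxed alleles of Ppp2r2a, which encodes B55α, a regulatory subunit of protein phosphatase 2A, and a Cre transgene driven by the cardiomyocyte promoter aMHC. The controls (Ctrl, 6 males and 6 females) were aMHC-Cre0/0-Ppp2r2aL/L, with the same floxed alleles and no Cre. Cre-positive mice without floxed alleles were not analysed here, so the effect of Cre alone cannot be told apart from that of the deletion. The floxed line was of C57BL6/N origin and the Cre line of FVB origin, while the strain label of every mouse reads C57BL/6N. The promoter is active in cardiomyocytes, and Ppp2r2a was not measured here by cell type.

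Glucose enters heart muscle mainly through the insulin-responsive transporter GLUT4, is trapped by hexokinase and is committed to glycolysis by phosphofructokinase, which fructose-2,6-bisphosphate activates. The triose steps then yield ATP and pyruvate, and lactate dehydrogenase interconverts pyruvate and lactate. Glycogen is built by glycogen synthase and branching enzyme and broken down by glycogen phosphorylase, which phosphorylase kinase switches on. Several steps have separate muscle and non-muscle isoenzymes.

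Library totals lay between 14403102 and 30867399 counts, of which mitochondrially encoded genes took 13.79% to 19.25% and the 31 genes together 1.746% to 1.976%. Ppp2r2a itself ranged from 24.1 to 47.7 CPM (counts-per-million, the count scaled by the TMM-adjusted library total) in Ctrl males and from 11.8 to 16.2 in cKO males, and from 36.2 to 46.7 in Ctrl females and from 9.96 to 16.2 in cKO females. The ranges did not overlap in either sex. Ctrl males 3 and 6 had the lowest control values, 24.9 and 24.1 CPM. The 7 cardiomyocyte markers (Myh6, Actc1, Tnnt2, Tnni3, Myl2, Ryr2 and Pln) summed to between 55052 and 76409 CPM in the 26 mice. Atrial markers (Myl7, Myl4 and Sln) summed to at most 2.31 CPM, and skeletal muscle markers (Mylpf, Tnnt3, Tnni2, Actn3, Myh4 and Pvalb) to at most 3.22 CPM, with Myh4 at 0 in every mouse.

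The muscle isoenzymes of enolase, phosphoglycerate mutase, phosphofructokinase and phosphorylase were the most abundant of their families, while the heart-type subunit led for lactate dehydrogenase. Per kilobase of the principal transcript, the mean level over all mice ran from 2094 CPM per kb for Aldoa, the muscle aldolase, and 1714 for Gapdh to 2.41 for Pfkfb3. Muscle enolase Eno3 stood at 1070 CPM per kb (range 916.7 to 1281), against 74.3 (51.2 to 100.1) for the widely expressed Eno1. Muscle phosphoglycerate mutase Pgam2 stood at 743 CPM per kb and its non-muscle relative Pgam1 at 24.9. The heart-type lactate dehydrogenase subunit Ldhb stood at 1086 CPM per kb and the muscle-type Ldha at 321. These isoenzyme pairs did not overlap in any mouse.

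The same order held at the entry and storage steps. Slc2a4, which encodes GLUT4, stood at 185 CPM per kb and Slc2a1, which encodes the basal transporter GLUT1, at 4.28. Among the phosphofructokinases, muscle Pfkm stood at 348 CPM per kb, liver-type Pfkl at 40.8 and platelet-type Pfkp at 17.9. Muscle phosphorylase Pygm stood at 439.9 CPM per kb and brain-type Pygb at 210.3. The hexokinases were closest, with Hk2 at 69.3 CPM per kb (range 55.8 to 94.4) and Hk1 at 51.4 (39.9 to 71.6), and their ranges overlapped. Of the 30 neighbouring pairs in the order of levels, 22 overlapped in range over the mice and 8 did not. Reads of genes with near-identical processed copies in the genome, such as Gapdh, Eno1, Pgk1 and Pgam1, can have been split or dropped when the authors counted them, so their levels are uncertain.

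**Figure D1:**
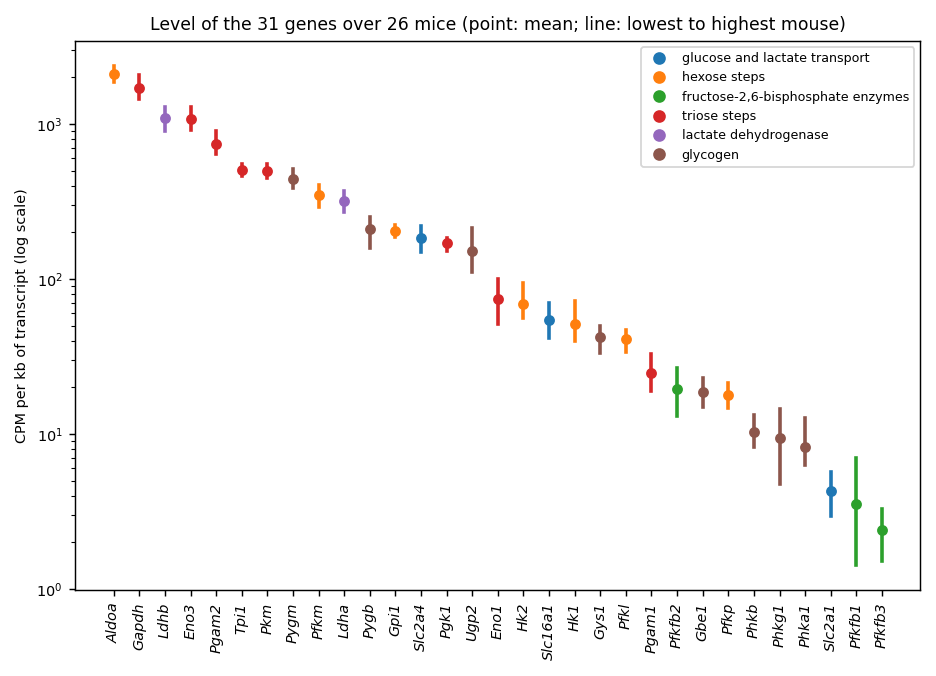
Level of each of the 31 genes in CPM per kb of the principal transcript, on a log axis. Points are means over 26 mice, lines run from the lowest to the highest mouse, and colours mark the role. Aldoa and Gapdh lead, and Slc2a1, Pfkfb1 and Pfkfb3 are lowest.

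The first comparison asked how cKO hearts differed from Ctrl hearts in males. Most of the 31 genes had slightly lower estimates in cKO males, with a median log2 fold change of -0.08, or -5.23%, against 0.00101 for all genes tested. A negative log2 fold change was found for 26 of 31 genes, against 49.7% of all genes. Eno3 alone passed an adjusted p under 0.05 in the edgeR quasi-likelihood test with Benjamini-Hochberg adjustment over all genes. Of all genes tested, 0.443% were called in this comparison, 40 lower (0.26%) and 28 higher in cKO. The unadjusted p was under 0.05 for 9 of the 31 genes (29%) against 13.2% of all genes. These were 8 lower (25.8%) and 1 higher (3.23%), against 7.09% and 6.11% of all genes.

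In females the estimates had nearly the same centre, with a median of -0.07 against 0.00276 for all genes, and 27 of 31 were negative against 48.9% of all genes. None of the 31 genes was called by edgeR, DESeq2 or limma voom in females. Of all genes tested, 0.0326% were called by edgeR. At an unadjusted p under 0.05 edgeR gave 5 of the 31 (16.1%) against 5.15% of all genes. These were 4 lower (12.9%) and 1 higher (3.23%), against 2.42% and 2.73% of all genes. Averaged over both sexes, the median was -0.08, 27 of 31 were negative against 48.4% of all genes, and Eno3 was again the only call by edgeR. There edgeR called 1.33% of all genes, and 0.866% were called lower. DESeq2 called Eno3, Tpi1, Pgam2 and Slc2a4 lower and Pfkp higher in that average, where it called 3.57% of all genes. Limma voom called Eno3 and Tpi1, both lower, where it called 2.03% of all genes. By edgeR, 14 of the 31 genes (45.2%) had an unadjusted p under 0.05 in that average against 14.1% of all genes. These were 13 lower (41.9%) and 1 higher (3.23%) against 7.7% and 6.43%. The genes share the same mice and libraries, so the count of negative estimates is a description and not a test.

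**Figure D2:**
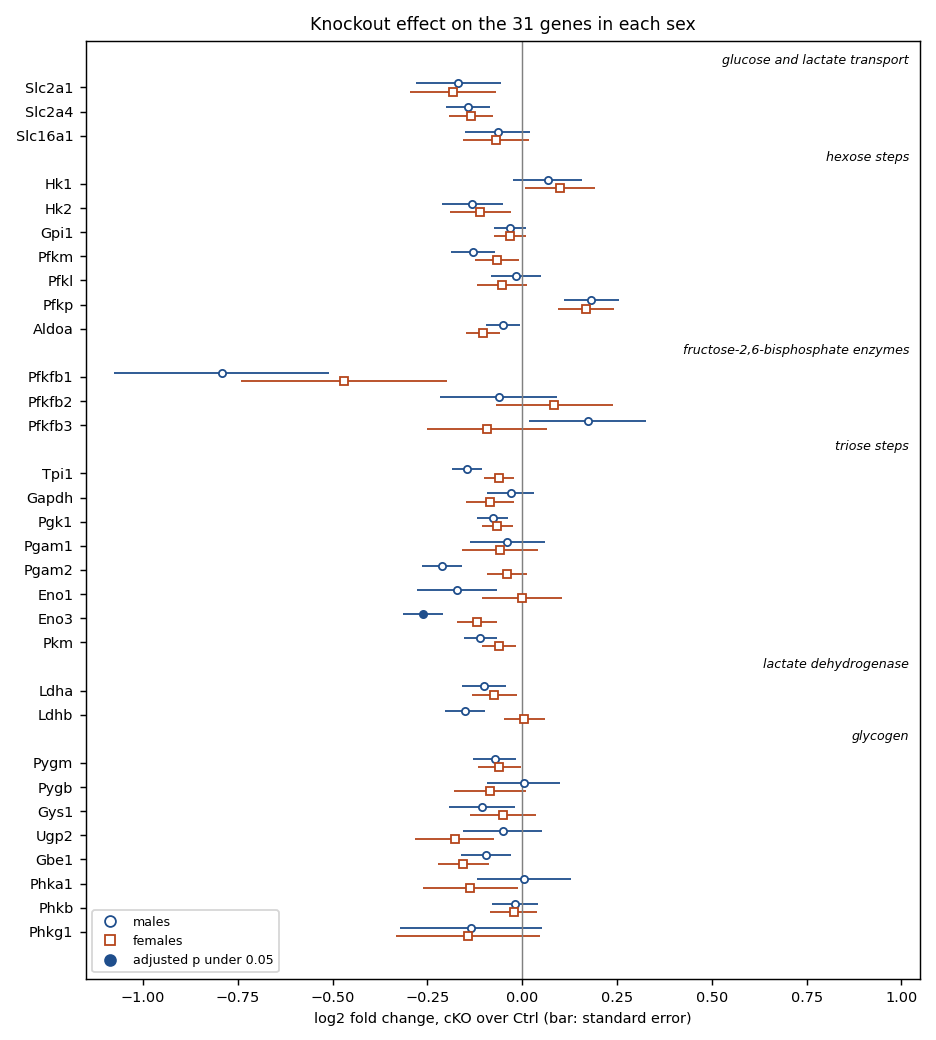
log2 fold change of cKO over Ctrl for each of the 31 genes in males (circles) and females (squares), grouped by role, with bars of 1 standard error. The filled circle is the only call by edgeR, Eno3 in males. Most points lie left of 0 in both sexes, and Pfkp lies right of it in both.

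Counting within each mouse gave overlapping groups. In cKO males, 16 to 28 of the 31 genes lay below the Ctrl mean of their sex (median 24), and in Ctrl males 4 to 23. In cKO females it was 18 to 26 (median 23), and in Ctrl females 5 to 23. Ctrl mice spread widely, with 3 Ctrl males at 23 genes, inside the cKO range. Each Ctrl mouse is part of the mean it is set against, and cKO mice are not. Over all genes tested, the share below the Ctrl mean ranged from 47.2% to 50.6% in the 26 mice. The TMM scaling holds that share nearly even in every mouse, so it gives no measure of how far 31 genes would spread.

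Cardiomyocyte markers also had mostly lower estimates in cKO. Their summed level ranged from 62631 to 70136 CPM in Ctrl males and from 55052 to 65721 in cKO males, and from 63418 to 76409 in Ctrl females and from 60172 to 71745 in cKO females. In males 6 of the 7 markers had lower estimates in cKO, with a median of -0.12, and troponin I (Tnni3) fell by 0.24 on the log2 scale (adjusted p = 0.0316, edgeR). The male estimates were uneven. Tnnt2 had -0.22, Myl2 -0.21, Actc1 -0.12, Myh6 -0.10, Pln -0.05 and Ryr2 0.03, none of them called by edgeR. In females 7 of 7 had lower estimates, with a median of -0.08, and none was called. The part of this in the results for the 31 genes was not tested. In whole tissue, fewer cardiomyocytes and less RNA per cardiomyocyte cannot be told apart. In males the other lists had medians from -0.08 for erythroid markers to 0.12 for adipocyte markers, fibroblast markers had 0.07 with 5 of 5 higher. In females they ran from -0.17 for erythroid to 0.34 for adipocyte markers, with fibroblast markers at 0.10 and endothelial markers at 0.05, 5 of 5 higher in each. No marker in these lists was called in either sex.

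**Figure D3:**
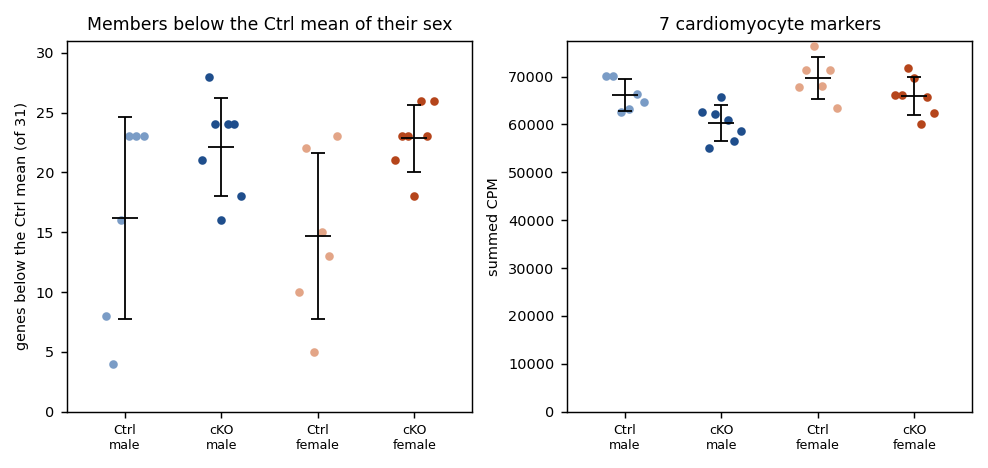
Left, the number of the 31 genes below the Ctrl mean of the same sex in each mouse. Right, the summed CPM of the 7 cardiomyocyte markers in each mouse. Points are mice, bars the mean and SD of the group. The cKO groups are centred higher on the left and lower on the right, and all Ctrl and cKO ranges overlap.

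Among the transporters, Slc2a4 had lower estimates in cKO of both sexes and was not called by edgeR. In males it had a lowest, median and highest value of 456.9, 489.9 and 521.9 CPM in Ctrl and 376.9, 454.7 and 479.8 CPM in cKO. In females the values were 443.3, 484.1 and 556.7 CPM in Ctrl and 416.6, 443.4 and 493.5 CPM in cKO. The cKO mice were centred lower in each sex and the ranges overlapped, although 7 of 7 cKO mice lay below the Ctrl mean in each. The log2 fold change was -0.14 (SE 0.0584) in males and -0.14 (SE 0.0584) in females, with adjusted p of 0.269 and 0.941 (edgeR). The mean over both sexes was -0.14 (SE 0.0413, adjusted p = 0.0814, edgeR). It passed the threshold with DESeq2 (adjusted p = 0.0259), where 3.57% of all genes were called, and was not called by limma voom. Slc2a1 had estimates of -0.17 and -0.18, and Slc16a1, which encodes the lactate and pyruvate carrier MCT1, had -0.06 and -0.07, in males and females, with no call.

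At the hexose steps the estimates were mixed. Pfkp was the only gene of the 31 with an unadjusted p under 0.05 in the higher direction, in each sex. Its mean was 69.7 ± 6.16 CPM (SD, n = 6) in Ctrl males and 79.1 ± 7.10 CPM (SD, n = 7) in cKO males. In females it was 68.6 ± 5.46 CPM (SD, n = 6) in Ctrl and 77.2 ± 8.97 CPM (SD, n = 7) in cKO. The log2 fold changes were 0.18 (SE 0.0733) and 0.17 (SE 0.0737), and the adjusted p was 0.259 and 0.941 in the sexes and 0.0817 for their mean (edgeR). With DESeq2 the mean passed (adjusted p = 0.0311), where 3.57% of all genes were called, and limma voom did not call it. Pfkm, the major isoenzyme, had -0.13 in males and -0.07 in females, also uncalled. Hk2 had -0.13 and -0.11 and Hk1 0.07 and 0.10, in males and females.

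Aldoa was among the 3 genes of smallest p in females. Its lowest, median and highest values in females were 3076, 3298 and 3597 CPM in Ctrl and 2830, 3118 and 3224 CPM in cKO. In males they were 2992, 3231 and 3341 CPM in Ctrl and 2904, 3129 and 3344 CPM in cKO. The ranges overlapped in both sexes, and in males nearly coincided. Aldoa had a log2 fold change of -0.10 (SE 0.0453) in females and -0.05 (SE 0.0453) in males, with no call. Glucose phosphate isomerase (Gpi1) and Pfkl had estimates between -0.05 and -0.02 in both sexes.

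Of the 3 bifunctional enzymes that make or remove fructose-2,6-bisphosphate, Pfkfb1 had the most negative estimate of all 31 genes in both sexes. It was scarce, at 5.87 ± 2.12 CPM (SD, n = 6) in Ctrl males and 3.39 ± 0.653 CPM (SD, n = 7) in cKO males. The Ctrl males ran from 4.23 to 8.78 CPM and the cKO males from 2.48 to 4.17 CPM, so the ranges did not overlap. In females it was 9.06 ± 3.89 CPM (SD, n = 6) in Ctrl and 6.54 ± 2.20 CPM (SD, n = 7) in cKO, with overlapping ranges. The spread within groups was wide: the log2 fold change was -0.79 (SE 0.283) in males and -0.47 (SE 0.271) in females, with adjusted p of 0.198 and 0.954 (edgeR). Pfkfb2, the cardiac isoform, had -0.06 and 0.08, and Pfkfb3 had 0.17 and -0.09, in males and females.

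The triose steps held the 3 genes of smallest p in males, Eno3, Pgam2 and Tpi1. All 8 triose genes had negative estimates in each sex, against 49.7% of all genes in males and 48.9% in females. The female estimate of Eno1 was -5.97e-05, so its sign carries no meaning. The median of the 8 was -0.13 in males and -0.06 in females. Eno3, whose product makes phosphoenolpyruvate, had a lowest, median and highest value of 1766, 1821 and 2004 CPM in Ctrl males and 1434, 1581 and 1649 CPM in cKO males. Every cKO male lay below every Ctrl male. Eno3 fell by 0.26 on the log2 scale (SE 0.0526), or 16.6%, in cKO males, with an adjusted p of 0.0272 by edgeR.

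The call in males was near the threshold. The adjusted p by edgeR was 0.0529 for Eno3 without Ctrl male 3, 0.0872 without Ctrl male 5, 0.0522 without cKO male 5 and 0.0587 without cKO male 6, with log2 fold changes from -0.27 to -0.24. It was 0.073 when length and GC content of the transcripts were adjusted for and 0.0579 without the low-Ppp2r2a Ctrl males 3 and 6, whose Eno3 values were 2004 and 1766 CPM. Over the alternatives other than omission of a single mouse, the adjusted p for Eno3 in males ranged from 0.000429 to 0.0748.

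In females Eno3 ran from 1450 to 1926 CPM in Ctrl (median 1761) and from 1478 to 1669 CPM in cKO (median 1642), and the ranges overlapped. The lowest female value belonged to a control, Ctrl female 6. The log2 fold change was -0.12 (SE 0.0527, adjusted p = 0.941, edgeR). The mean of both sexes fell by 0.19 (SE 0.0372, adjusted p = 0.0106, edgeR). This mean stayed past the threshold under each of 11 alternatives and without each of the 26 mice, with adjusted p from 0.000135 to 0.0438, but it is no call at a threshold of 0.01.

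Pgam2, which moves the phosphate of phosphoglycerate, had a lowest, median and highest value of 636.0, 701.2 and 758.5 CPM in Ctrl males and 541.8, 619.7 and 653.7 CPM in cKO males. The ranges overlapped narrowly and 7 of 7 cKO males lay below the Ctrl mean. In females the values were 578.7, 590.5 and 671.6 CPM in Ctrl and 543.5, 592.6 and 628.5 CPM in cKO, with close medians. Pgam2 had a log2 fold change of -0.21 (SE 0.0532, adjusted p = 0.0604, edgeR) in males and -0.04 (SE 0.0533, adjusted p = 0.985, edgeR) in females. In males Pgam2 passed the threshold with the DESeq2 Wald test (adjusted p = 0.00615) and with limma voom (adjusted p = 0.0398), which called 2.6% and 1.22% of all genes.

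Tpi1, the triose phosphate isomerase, had a lowest, median and highest value of 845.8, 873.2 and 890.3 CPM in Ctrl males and 743.6, 776.2 and 835.0 CPM in cKO males. The male ranges did not overlap. In females they were 765.5, 823.6 and 875.4 CPM in Ctrl and 762.6, 785.6 and 816.5 CPM in cKO, and overlapped. Tpi1 had a log2 fold change of -0.15 (SE 0.0389, adjusted p = 0.0741, edgeR) in males and -0.06 (SE 0.0389, adjusted p = 0.965, edgeR) in females. With DESeq2 the adjusted p in males was 0.0035 and with limma voom 0.0434. For the mean of both sexes DESeq2 (adjusted p = 0.00199) and limma voom (adjusted p = 0.0384) called Tpi1, and edgeR did not. Eno3, Tpi1 and Pfkfb1 were the 3 of 31 genes whose ranges did not overlap in males, all lower in cKO, where 1.28% of all genes did not overlap and 0.873% were lower. None of the 31 did so in females, against 0.169% of all genes.

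The other triose genes differed less. Pyruvate kinase (Pkm) had -0.11 in males and -0.06 in females, phosphoglycerate kinase (Pgk1) -0.08 and -0.07, and Gapdh -0.03 and -0.09. The non-muscle Eno1 had -0.17 (SE 0.105) in males and 0.00 (SE 0.106) in females, and Pgam1 -0.04 and -0.06. None of these 5 was called in either sex.

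**Figure D4:**
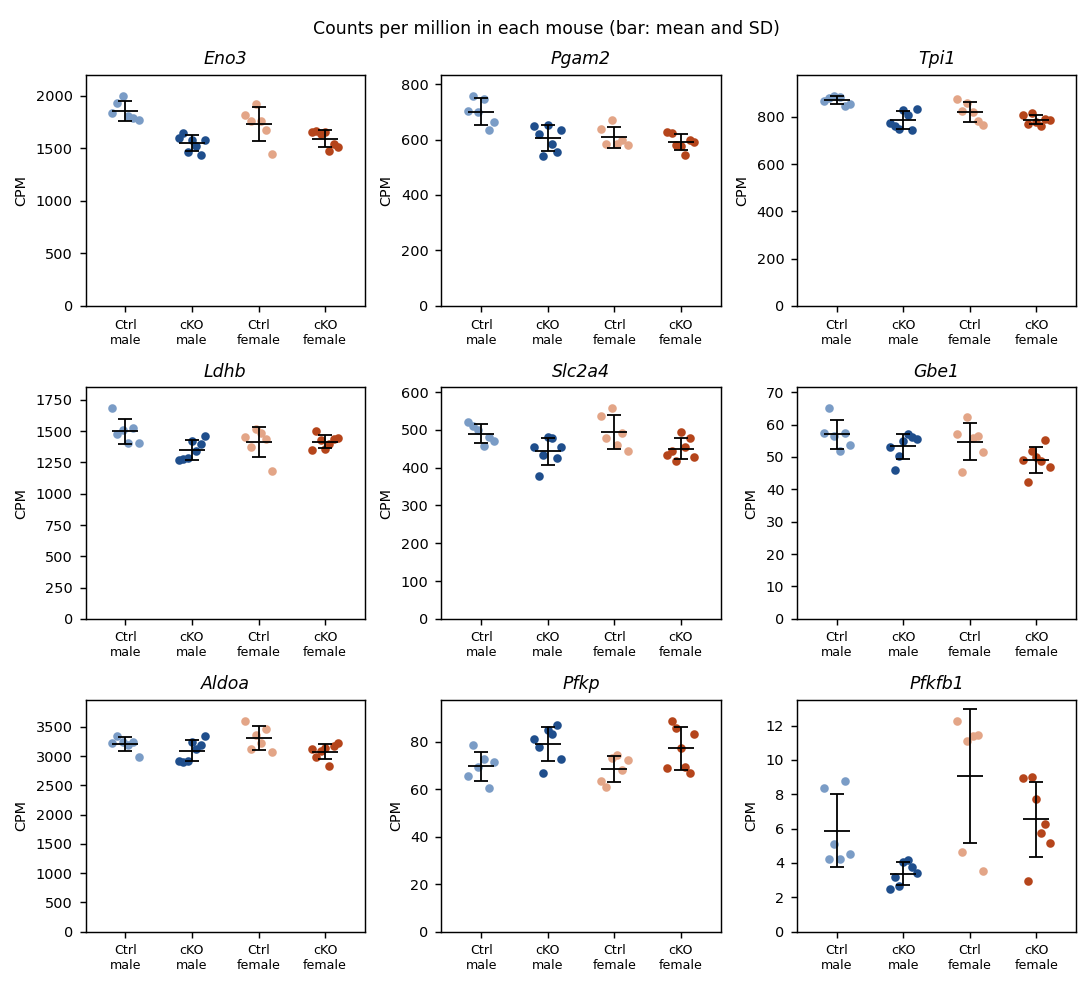
CPM of 9 genes in each mouse, on axes that start at 0, with the mean and SD of each group. Eno3, Tpi1 and Pfkfb1 separate Ctrl from cKO males, and the female groups overlap in all 9 panels.

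The promoters of Eno3, Pgam2 and Tpi1 are shown because these genes had the smallest p in males. Each is the 250 bases before the RefSeq start in build GRCm38.p6, written 5′ to 3′ on the gene's strand, and capitals mark matches to the motifs searched. The windows are chr11:70656926-70657175 on the plus strand for Eno3, chr11:5803797-5804046 on the minus strand for Pgam2 and chr6:124814159-124814408 on the minus strand for Tpi1. Which start these hearts used was not measured. The bases just after the start were found in a GENCODE M21 transcript of the gene for Tpi1, but not for Eno3 or Pgam2. Positions in the Eno3 and Pgam2 windows therefore rest on the RefSeq start alone.
Eno3: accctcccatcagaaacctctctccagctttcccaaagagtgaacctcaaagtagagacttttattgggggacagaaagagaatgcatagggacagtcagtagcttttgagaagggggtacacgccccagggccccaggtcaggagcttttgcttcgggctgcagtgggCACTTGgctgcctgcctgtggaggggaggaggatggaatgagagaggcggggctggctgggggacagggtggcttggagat
Pgam2: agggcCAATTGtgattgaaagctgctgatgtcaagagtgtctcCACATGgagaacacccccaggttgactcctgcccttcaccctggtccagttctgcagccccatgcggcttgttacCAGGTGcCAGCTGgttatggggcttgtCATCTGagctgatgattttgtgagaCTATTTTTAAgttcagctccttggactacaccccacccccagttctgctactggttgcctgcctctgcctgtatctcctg
Tpi1: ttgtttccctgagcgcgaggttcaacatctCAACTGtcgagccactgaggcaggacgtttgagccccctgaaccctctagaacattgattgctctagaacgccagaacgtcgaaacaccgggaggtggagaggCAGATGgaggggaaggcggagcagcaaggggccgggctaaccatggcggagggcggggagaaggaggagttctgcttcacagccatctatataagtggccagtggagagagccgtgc

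Both strands were searched for the MEF2 consensus, the E-box CANNTG, the sequence AAGGTCA bound by oestrogen-related receptors, and ACGTG, the core of hypoxia and carbohydrate response elements, which can lie inside an E-box. Pgam2 held a MEF2 consensus match 80 bases before the start and 5 E-boxes. Eno3 held 1 E-box and Tpi1 held 2. None of the 3 windows held AAGGTCA or ACGTG. Among 32851 promoter windows of this length, 2.92% held the MEF2 consensus, 66.2% an E-box, 4.08% AAGGTCA and 16.6% ACGTG. Of 47 starts of the 30 genes found in the promoter table, 4.26%, 72.3%, 4.26% and 38.3% held them in the same order. Slc2a4 had no entry. A match is a description of the letters and shows no binding.

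Ldhb, the heart-type lactate dehydrogenase subunit, had a lowest, median and highest value of 1402, 1490 and 1682 CPM in Ctrl males and 1267, 1344 and 1459 CPM in cKO males. In females it had 1184, 1449 and 1520 CPM in Ctrl and 1350, 1429 and 1504 CPM in cKO. The ranges overlapped in both sexes, and the female medians were close. The log2 fold change was -0.15 (SE 0.0532, adjusted p = 0.184, edgeR) in males and 0.01 (SE 0.0533) in females, where it turned negative in 3 alternatives. Ldha had -0.10 in males and -0.07 in females.

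The 8 glycogen genes had small estimates and no call. In males 6 of 8 were negative against 49.7% of all genes, with a median of -0.06, and none had an unadjusted p under 0.05. In females all 8 were negative against 48.9% of all genes, with a median of -0.11. Of these 8, 1 had an unadjusted p under 0.05 in females, the branching enzyme Gbe1. Its lowest, median and highest values in females were 45.2, 56.2 and 62.2 CPM in Ctrl and 42.2, 49.2 and 55.2 CPM in cKO, with overlapping ranges. In males they were 51.8, 56.9 and 65.0 CPM in Ctrl and 46.0, 54.9 and 57.1 CPM in cKO, also overlapping. The log2 fold change of Gbe1 was -0.16 (SE 0.0672, adjusted p = 0.941, edgeR) in females and -0.10 (SE 0.0666, adjusted p = 0.576, edgeR) in males.

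Muscle phosphorylase (Pygm) had -0.07 in males and -0.06 in females, glycogen synthase (Gys1) -0.11 and -0.05, and Ugp2, which makes the UDP-glucose that glycogen synthase uses, -0.05 and -0.18. The phosphorylase kinase subunit genes Phka1, Phkb and Phkg1 had estimates from -0.14 to 0.00 in males and from -0.14 to -0.02 in females, and Pygb 0.00 and -0.08.

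Balance between isoenzymes was described by the log2 ratio of CPM in each mouse. For all 10 ratios, the Ctrl and cKO ranges overlapped in each sex. The ratio of Pfkp to Pfkm was -3.92 ± 0.142 (SD, n = 6) in Ctrl males and -3.61 ± 0.165 (SD, n = 7) in cKO males, and -3.90 ± 0.144 (SD, n = 6) and -3.67 ± 0.184 (SD, n = 7) in females. The ratio of Hk1 to Hk2 differed by 0.21 in males and 0.19 in females between cKO and Ctrl. That of Pgam1 to Pgam2 differed by 0.17 in males and -0.02 in females, and that of Eno1 to Eno3 by 0.08 and 0.12. These ratios were not tested.

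Whether the knockout effect differed between the sexes was tested as an interaction. No gene was called by edgeR, DESeq2 or limma voom (0% of all genes), and 608 genes, or 3.96%, had an unadjusted p under 0.05 by edgeR. For the 31 genes every adjusted p was 0.999, the median difference of female minus male effects was 0.01, and 14 were negative against 48.4% of all genes. At an unadjusted p under 0.05 there were 2, Pgam2 with a difference of 0.17 (SE 0.0753) and Ldhb with 0.16 (SE 0.0753). Eno3 was next, with 0.14 (SE 0.0746). The larger male estimates of Eno3, Pgam2 and Tpi1 were therefore not shown to differ from the female ones.

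Females were also compared with males within each genotype. In Ctrl none of the 31 genes was called by edgeR, where 0.638% of all genes were. An unadjusted p under 0.05 was found for 3 (9.68%) against 12.1% of all genes. These were Pgam2 with a female over male log2 fold change of -0.20 (adjusted p = 0.0834, edgeR), Phkb with -0.20 (adjusted p = 0.148, edgeR) and Pfkfb1 with 0.63 (adjusted p = 0.358, edgeR). With DESeq2 1 was called, Pgam2 (adjusted p = 0.0236), where 1.65% of all genes were, and with limma voom none, where 0.677% were.

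In cKO none was called by edgeR, where 2.7% of all genes were, and 5 (16.1%) had an unadjusted p under 0.05 against 17.3%. Pfkfb1 was higher in cKO females by 0.95 (adjusted p = 0.0605, edgeR), a difference not past the threshold. Phkb had -0.21 (adjusted p = 0.0532), Ugp2 -0.33 (adjusted p = 0.0691), Gapdh -0.18 (adjusted p = 0.107) and Pfkfb3 -0.38 (adjusted p = 0.18), all by edgeR. DESeq2 called Phkb, Pfkfb1 and Ugp2 (adjusted p = 0.0276, 0.0123 and 0.0331), where it called 4.6% of all genes. With limma voom Phkb was called (adjusted p = 0.041), where 4.36% of all genes were. Pfkfb1, Pgk1 and Phka1 lie on the X chromosome. In this comparison 6 of 7 cardiomyocyte markers had higher estimates in females, 2 of them called (Tnni3 and Myl2), and their part in these values was not tested.

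A wider list of 57 related genes, 50 of them tested, covered other transporters, isoenzymes, glycogen proteins and regulators. In males 26 of 50 had negative estimates against 49.7% of all genes, with a median of -0.02, and none was called by edgeR. At an unadjusted p under 0.05 there were 12 of 50 (24%) against 13.2% of all genes. These were 8 lower (16%) and 4 higher (8%) against 7.09% and 6.11%. DESeq2 called 4 in males, where it called 2.6% of all genes: Pgm1, Bsg and Bpgm lower and Mlxip higher. Bpgm encodes bisphosphoglycerate mutase (log2 fold change -0.30, adjusted p = 0.0485, DESeq2) and Mlxip the glucose-responsive factor MondoA (0.22, adjusted p = 0.0392, DESeq2). With limma voom 1 was called, where 1.22% of all genes were: Slc2a12, which encodes the transporter GLUT12 (-0.41, adjusted p = 0.0405). In females 30 of 50 were negative against 48.9% of all genes, and none was called by any of the 3 tools. By edgeR 2 (4%) had an unadjusted p under 0.05 in females against 5.15%. In the interaction none was called by any of the 3 tools and 2 (4%) had an unadjusted p under 0.05 by edgeR against 3.96%. In the mean of both sexes 27 of 50 were negative against 48.4% of all genes. By edgeR 7 (14%) had an unadjusted p under 0.05 in that mean against 14.1%. There edgeR called 2 of the 50, both lower in cKO, where 1.33% of all genes were called, and 0.866% were called lower. DESeq2 added Slc2a12 and Bpgm to these, where it called 3.57% of all genes, and limma voom called the same 2 as edgeR. Of the 57 names, Gyg1 is another name of the tested glycogenin gene Gyg, and Hkdc1, Aldoc, Gapdhs, Pgk2, Pklr and Gys2 had at most 8 counts in any mouse.

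Bsg encodes basigin, the partner that carries MCT1 to the cell surface. Its lowest, median and highest values were 1425, 1567 and 1654 CPM in Ctrl males and 1299, 1379 and 1456 CPM in cKO males. In females they were 1517, 1652 and 1951 CPM in Ctrl and 1250, 1482 and 1524 CPM in cKO. The ranges overlapped slightly in both sexes, and every cKO mouse lay below the Ctrl mean of its sex. Bsg fell by 0.20 (SE 0.0387, adjusted p = 0.0103, edgeR) in the mean of both sexes, with -0.18 in males and -0.22 in females. Its adjusted p was 0.0522 by edgeR with the length and GC correction and the replicate block together, the only one of 11 alternatives to end the call.

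Pgm1 encodes phosphoglucomutase, which links glycogen to glycolysis. It had 246.5 to 300.3 CPM in Ctrl males (median 266.4) and 221.8 to 261.2 in cKO males (median 241.5), and 240.6 to 271.5 in Ctrl females (median 254.2) and 214.9 to 251.7 in cKO females (median 236.9). The ranges overlapped in both sexes. Pgm1 fell by 0.14 (SE 0.0346, adjusted p = 0.0432, edgeR) in the mean of both sexes. This call was lost on leaving out any of 13 of the 26 mice (Ctrl males 1, 2 and 5, cKO males 2, 3 and 6, Ctrl females 1, 3, 4 and 5, and cKO females 1, 5 and 7), with adjusted p from 0.0561 to 0.0724 by edgeR. It was also lost without the filter on low counts (adjusted p = 0.0829), with the replicate block (0.0934), after the length and GC correction (0.105), with both of these (0.228) and without the females numbered 2 (0.0508), all by edgeR.

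Of the 50, edgeR called 1 between the sexes, in Ctrl, where it called 0.638% of all genes. This was Tigar, which encodes a fructose bisphosphatase. Among Ctrl mice it ran from 74.7 to 111.2 CPM in males (median 87.8) and from 64.3 to 79.6 in females (median 70.8), with overlapping ranges. Females were lower by a log2 fold change of -0.33 (SE 0.0748, adjusted p = 0.0276, edgeR). Tigar was also called by DESeq2 (adjusted p = 0.00519) and limma voom (adjusted p = 0.0402), which called 1.65% and 0.677% of all genes. The edgeR call was lost on leaving out any of 7 Ctrl mice (males 2, 3 and 4 and females 1, 2, 4 and 6), with adjusted p from 0.052 to 0.0827. It was also lost with the replicate block (adjusted p = 0.06), with the block and the length and GC correction (0.065), without Ctrl males 3 and 6 (0.0875), without the females numbered 2 (0.0634) and in a fit of the Ctrl groups alone (0.0937), all by edgeR. In cKO the female over male difference of Tigar was -0.17 (adjusted p = 0.188, edgeR). None of the 50 was called there by edgeR or DESeq2. By edgeR 5 of the 50 (10%) had an unadjusted p under 0.05 there against 17.3% of all genes. With limma voom 1 of the 50 was called in cKO, where 4.36% of all genes were. This was Ppp1r3c, a glycogen-targeting subunit of protein phosphatase 1 (log2 fold change -0.50, adjusted p = 0.0357).

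**Figure D5:**
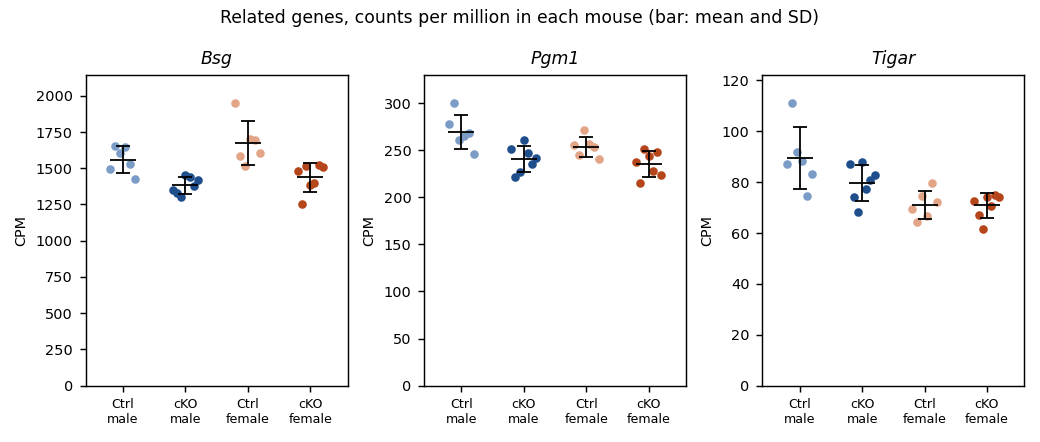
CPM of Bsg, Pgm1 and Tigar in each mouse, on axes that start at 0, with the mean and SD of each group. Bsg and Pgm1 are centred lower in cKO of both sexes, and Tigar is highest in Ctrl males.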

How the data were processed

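For all 26 libraries, 1 deposited matrix holds unnormalized whole-number counts by gene, made by the authors. Per the labels, libraries were stranded and poly-A selected from 500 ng RNA (RNA integrity number at least 7.7). The submitters' processing notes name FastQC 0.74, cutadapt 4.6, STAR 2.7.11a, HTSeq and build GRCm39. The annotation release and the strand setting of counting are not given in the sources used here.

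Genes were filtered by filterByExpr (minimum count 10), scaled by TMM and fitted in edgeR 4.0.16 (R 4.3.3) as 4 group means over 26 mice, with robust quasi-likelihood tests, 6 contrasts and Benjamini-Hochberg adjustment over 15357 genes. CPM use TMM-scaled totals. Levels per kb use principal transcripts of GENCODE M21. Libraries were taken as separate mice per the labels; chi-square per degree of freedom for the 72 pairs within groups was 7.8 to 37, above sampling noise. The fit was tested on simulated data with genes changed in cKO males. It called 19.7%, 53% and 87.5% of the genes changed by 0.25, 0.5 and 1 on the log2 scale, and 2.8% of its calls were false. Most changes of 0.25 were thus missed, so a gene not called may still have changed.

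Values for each group are given for members called in any contrast and the 3 of smallest p for each sex and for the interaction. Related genes are named where edgeR called them; those called only by another tool were named with their values in view. Ranges of Pfkfb1 and values of Pfkp and Eno1 were added with their values in view. The members and lists were chosen with earlier results of these data known.

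Alternatives were DESeq2 size factors, the DESeq2 1.42.0 Wald test, limma 3.58.1 voom with quality weights, no filter, at least 5 CPM, no robust estimation, a length and GC correction, the replicate block alone and with it, only the compared groups, other thresholds, and omission of mice. Replicate numbers from the titles were not taken as pairs. The same-number correlation of Ctrl with cKO was over 0.1 for 0 of 6 pairs in males (mean -0.0259). In females it was over 0.1 for 3 of 6 (mean 0.118, highest 0.404). Ctrl and cKO mice of different number had a mean of 0.0043 in males and -0.0186 in females.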

Additional observations from a re-analysis of the deposited data

Results flagged for a closer look

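In 124 groups of mice (31 genes in 4 groups), 4 held a mouse far from the rest of its group; chance marks about 1 in 20 groups. Hk2 in Ctrl male 2 was 471.4 CPM, with the other Ctrl males at 360.1 to 400.4. Phkb in the same mouse was 71.4 CPM, with the others at 55.4 to 58.8. Pgam1 in cKO female 4 was 58.3 CPM, with the other cKO females at 39.2 to 44.6. Phka1 in cKO male 7 was 77.5 CPM, with the other cKO males at 39.0 to 52.0. None of these genes was called in either sex.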

How the results depend on the processing

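The median log2 fold change of the 31 genes stayed negative in males (-0.10 to -0.07 over the alternatives, -0.11 to -0.05 without single mice), in females (-0.07 to -0.06 and -0.08 to -0.04) and in the mean of both sexes (-0.09 to -0.07 in each). It crossed 0 for sex in cKO (-0.0013 to 0.0052), and without single mice for sex in Ctrl (-0.0417 to 0.0030) and the interaction (-0.0201 to 0.0429). Counts of calls depend on the tool. In the order males, females, sex in Ctrl, sex in cKO and mean of both sexes, edgeR called 68, 5, 98, 414 and 205 of all genes. The DESeq2 Wald test called 399, 9, 253, 707 and 549, with 3, 0, 1, 3 and 5 of the 31 genes and 4, 0, 1, 0 and 4 of the related genes. With limma voom, males, sex in cKO and the mean gave 188, 670 and 312 genes, with 3, 1 and 2 of the 31, and 1 related gene in males and 1 in sex in cKO.

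Without the filter, 31 genes were called in males, 244 for sex in cKO and 113 in the mean, with 1 related gene in the mean. With at least 5 CPM, 164 were called in males and 2 in females, and of the 31 genes 3 in males, 2 for sex in cKO and 2 in the mean. Without robust estimation 1 of the 31 was called for sex in cKO. For sex in cKO, sex in Ctrl and the mean, the main fit called 2.7%, 0.638% and 1.33% of all genes. These shares belong to the main fit alone. The fit with at least 5 CPM tested 10246 genes, and the fit with the length and GC correction tested 15092. Where an alternative is given no count of all genes for a comparison, its count of the 31 genes cannot be set against a share. Counts of the 31 genes in this section are a description and were not tested against such shares. With the length and GC correction, 9 genes were called in males (1 higher and 8 lower, against 28 and 40) and 93 in the mean, with 0 of the 31 in males, 1 for sex in Ctrl, and 1 related gene in the mean. Fitting only the compared groups gave 1 gene in females and 61 for sex in Ctrl, 2 of the 31 for sex in cKO, and 1 related gene in males and 0 for sex in Ctrl. At an adjusted p under 0.01, 4 genes were called for males, 3 for females, 35 and 69 for sex in Ctrl and cKO and 23 in the mean, with 0 of the 31 and 0 related genes. Under 0.1 there were 304 for males, 225 and 880 for sex and 487 in the mean, with 3, 1, 3 and 5 of the 31 genes, and 1, 1 and 4 related genes in males, sex in cKO and the mean.

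With the replicate block, 3 genes passed in females, 1 of the 31 in males, and 0 related genes for sex in Ctrl and 1 in the mean. With the replicate block and the length and GC correction, 14 passed in males, 3 for females and 61 in the mean, with 0 of the 31 in males and 0 related genes for sex in Ctrl and in the mean. The numbers were not taken to pair the mice, since not every same-numbered pair correlated over 0.1. In females, Ctrl and cKO mice of the same number had a higher mean correlation (0.118) than those of different number (-0.0186). Whether same-numbered females shared a batch was not tested, and the Pgm1 and Tigar calls were lost with the replicate block.

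Without Ctrl males 3 and 6, 7 genes were called in males, 40 for sex in Ctrl, 0 of the 31 in males and 0 related genes for sex in Ctrl, and the interaction of Ppp2r2a turned from -0.18 to 0.0472. Without the females numbered 2, 160 were called in males, 2 of the 31 in males and 1 for sex in cKO, and related genes numbered 1 in males, 0 for sex in Ctrl and 1 in the mean. Without single mice, genes called ranged from 4 (without Ctrl male 5) to 79 in males, from 3 to 7 in females, from 54 to 114 for sex in Ctrl, from 163 to 548 for sex in cKO and from 96 to 349 in the mean. The mean gave 349 without Ctrl female 6, and 131, 96, 109, 127 and 115 without Ctrl males 1 and 5, Ctrl females 1 and 4 and cKO female 5. Sex in Ctrl gave 55, 54, 60, 55 and 64 without Ctrl males 2, 3 and 4 and Ctrl females 4 and 6. Sex in cKO gave 193, 236, 225, 224 and 163 without cKO males 1, 6 and 7 and cKO females 2 and 4. Females gave 3 without any of Ctrl females 3, 5 and 6 and cKO females 3, 4, 6 and 7. In males 37 were called without Ctrl male 1, 30 without 2, 30 without 3 and 23 without 4, and 20, 11, 6 and 7 without cKO males 1, 2, 5 and 6. Of the 31 genes, 0 to 1 were called in males, 0 to 1 for sex in Ctrl (1, Pgam2, without Ctrl female 3), 0 to 1 for sex in cKO (1 without any of cKO males 3 and 5 and cKO females 1, 2 and 6) and 1 to 4 in the mean (4 without Ctrl female 6, and 2 without any of cKO males 4 and 7, Ctrl female 5 and cKO female 3). Related genes ranged from 0 to 1 for sex in Ctrl and from 1 to 3 in the mean.

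The Ldhb estimate in females (0.01) was -0.0048 with voom, -0.0032 with the replicate block, -0.015 without the females numbered 2, and -0.0409 to 0.0268 without single mice. The interaction of Pfkp (-0.01) was 0.0296 with the length and GC correction, 0.0239 with the replicate block as well, and -0.0511 to 0.0224 without single mice, and that of Slc2a4 (0.01) was -0.0276 to 0.0435 without single mice. The cause of these changes was not tested. No gene passed in the interaction under any alternative.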
